A study of Mus musculus with 4 samples.

Results

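The genes that encode the respiratory chain and its ATP synthase were followed in the RNA-seq of unstimulated B220+ splenocytes. Members were the protein-coding genes whose symbols start with Nduf, Uqcr, Cox4i to Cox8, Atp5, mt-Nd, mt-Co, mt-Cytb or mt-Atp, with *Sdha*, *Sdhb*, *Sdhc*, *Sdhd* and *Cyc1*. Of 107 such genes, 95 reached 10 or more counts in 2 or more libraries, as did 14554 of the 41214 genes in the table. The nuclear genome encodes 87 of the 95 and the mitochondrial genome encodes 8. Complexes were assigned by symbol alone, so every Nduf gene, *Ndufa4* and the Ndufaf assembly factors included, stands under complex I.

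The chain sits in the inner mitochondrial membrane. Complex I (NADH dehydrogenase) and complex II (succinate dehydrogenase) pass electrons to coenzyme Q, complex III passes them on to cytochrome c, and complex IV (cytochrome c oxidase) hands them to oxygen. Complexes I, III and IV pump protons while they do so, and complex V (ATP synthase) uses the returning protons to make ATP. Complex II is built from nuclear-encoded proteins alone, whereas the other complexes combine nuclear-encoded subunits with a few made inside the mitochondrion. Resting B cells rely mainly on this oxidative route for their ATP.

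The libraries came from B220+ spleen cells of mice with intact MIZ-1 (MIZ-1WT) and of MB1-Cre x Miz-1 floxPOZ mice (MIZ-1ΔPOZ, spelled Miz-1DPOZ in the labels), with 2 biological replicates per genotype. MIZ-1 is a zinc finger transcription factor, and MB1-Cre, driven by the *Cd79a* promoter, removes its POZ domain in B cells. All lines were on a C57BL/6 background and the mice were young adults. Whether the MIZ-1WT mice carried MB1-Cre is not given in the sources used here. B220 selection was positive and magnetic, no stimulus was added, and ribosomal RNA was depleted before stranded paired-end sequencing.

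The libraries held between 43026814 and 46387209 counts on genes. The X-inactivation transcript *Xist* had at most 60 counts in the MIZ-1WT libraries and at least 38145 in the MIZ-1ΔPOZ libraries, and 4 Y-linked genes were lower in MIZ-1ΔPOZ, so sex and genotype cannot be told apart here. Among the members, *Ndufa1*, *Ndufb11* and *Cox7b* are X-linked. *Zbtb17*, which encodes MIZ-1, had a log2 fold change of -0.32 (adjusted p = 0.00857). The 10 pan-B cell genes summed to between 11167 and 13805 CPM (counts scaled to a common library total, normalized by TMM) in every library, and 8 of them were lower in MIZ-1ΔPOZ. The 18 macrophage markers summed to 1026 and 1351 CPM in MIZ-1WT and to 5961 and 3882 CPM in MIZ-1ΔPOZ, and all 18 rose, with a median log2 fold change of 1.98. Plasma cell markers summed to 734 and 1059 CPM in MIZ-1WT and to 2477 and 2310 CPM in MIZ-1ΔPOZ, and 5 of 6 rose. T cell markers (32 to 55 CPM in sum, 2 of 10 called), neutrophil markers (4 to 16 CPM, 1 of 5 called) and erythroid markers (40 to 117 CPM, 0 of 8 called) summed to far less. Erythroid markers were highest in MIZ-1ΔPOZ replicate 2 and lowest in MIZ-1ΔPOZ replicate 1, and 7 of 8 were called higher without the latter. No marker of these lists was at 0 in all 4 libraries. The part of these other cells in the results that follow was not tested, and in bulk RNA a change in the number of cells of a type and a change in RNA per cell cannot be told apart.

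All tests between genotypes used the quasi-likelihood method of edgeR on the 14554 genes, with p-values adjusted by Benjamini-Hochberg. Of the 95 members, 17 were higher in MIZ-1ΔPOZ and 1 was lower at an adjusted p under 0.05. Over all tested genes the shares were 21.1% higher and 18.9% lower, against 17.9% and 1.05% of the members. The share of members called higher was thus near the background, and the share called lower was below it. In either direction 40% of all genes and 18.9% of the members were called. Leaving out 1 library left 3 members higher without MIZ-1WT replicate 1 (*Cox5a*, *Cox8a* and *Atp5g1*), 5 without MIZ-1WT replicate 2 (these with *Ndufa10* and *Ndufc2*), 10 without MIZ-1ΔPOZ replicate 1 and 20 without MIZ-1ΔPOZ replicate 2, and 0, 0, 0 and 4 members lower, the 4 all mitochondrially encoded. The share called over all genes fell whichever library was left out. With genes of a mean of at least 30 RPM alone, 33 of 72 members were higher and 0 lower. Of all genes so tested, 45.4% were called in both directions together. After removal of an uncentred trend on GC content and exon length 5 members were higher and 21 lower. Of all genes, 50.4% were then called in both directions together. Shares by direction over all genes are not given for these settings, so these member counts have no background by direction. The changes were small. No member reached the study's limit of 0.6 on the log2 scale with an unadjusted p under 0.05, a limit that 15% of all genes passed upwards and 5.3% passed downwards. Mitochondrially encoded members passed it downwards when either MIZ-1ΔPOZ replicate was left out, *mt-Nd2* and *mt-Nd4* of them without replicate 2. The 95% interval of the log2 fold change lay between -0.6 and 0.6 for 88 of the 95 members. Both MIZ-1ΔPOZ libraries lay above both MIZ-1WT libraries for 53 members (55.8%, against 37.2% of all genes) and below them for 12 (12.6%, against 37.6%), while the genotypes overlapped for 30. The log2 fold change was above 0 for 63 members (66.3%, against 49.4% of all genes).

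The nuclear-encoded and mitochondrially encoded members had medians of opposite sign. The median log2 fold change was 0.08 over the 87 nuclear-encoded members, -0.22 over the 8 mitochondrially encoded members and -0.01 over all tested genes. Of these 8, 0 were called and 7 overlapped between genotypes. The remaining gene, *mt-Co3*, had at most 30 counts per library. The mitochondrially encoded median moved to -0.055 without MIZ-1WT replicate 1, -0.083 without MIZ-1ΔPOZ replicate 1, -0.37 without MIZ-1WT replicate 2, -0.39 without MIZ-1ΔPOZ replicate 2 and -0.065 under a centred trend on GC content and length. The nuclear-encoded median turned to -0.06 when a trend on GC content and exon length was removed from each library, a step that shifted the median of all genes to -0.14. Taken relative to the median of all genes it was 0.09 higher in the analysis as reported, and from 0.06 to 0.16 higher under the 13 alternatives. By complex, the nuclear-encoded medians were 0.07 for complex I (45 genes), 0.11 for complex II (4 genes), 0.07 for complex III (9 genes), 0.11 for complex IV (12 genes) and 0.12 for complex V (17 genes). These differences between complexes are small beside the spread within them, since the complex I genes alone ranged from -0.20 to 0.36. The 87 nuclear-encoded members that passed the filter together took 0.694% and 0.698% of the gene counts in MIZ-1WT and 0.790% and 0.767% in MIZ-1ΔPOZ, so the genotypes did not overlap in this share. The exact permutation test on 2 against 2 libraries cannot reach a p under 0.05, so no test is given for it.

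**Figure D1:**
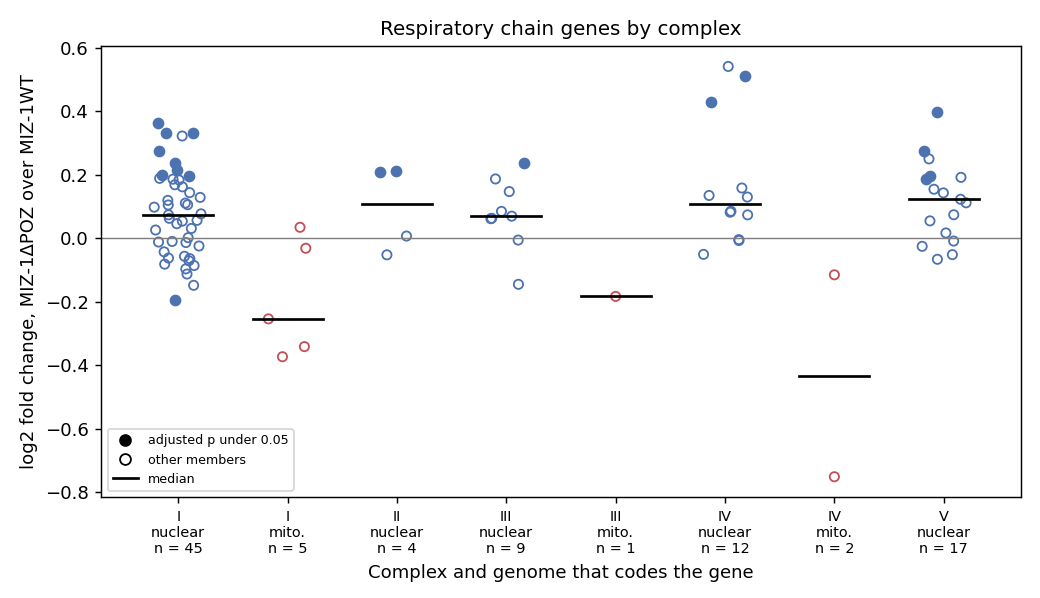
Log2 fold change of each tested member (MIZ-1ΔPOZ over MIZ-1WT, vertical axis) by complex and coding genome (horizontal axis), each point 1 gene, filled where the adjusted p was under 0.05, and each bar a median. Nuclear-encoded members (blue) sit mostly above 0 (62 of 87, or 23 of 87 once the uncentred trend on GC content and length is removed). Mitochondrially encoded members (red) sit mostly below 0 (7 of 8), but 0 of them were called and 7 overlapped between genotypes. Of all tested genes, 49.4% lay above 0.

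Levels between genes were compared as RPKM, CPM divided by the exon length in kilobases. The MIZ-1WT median was 20.7 RPKM for the nuclear-encoded genes of complex I, 57.3 for complex II, 54.5 for complex III, 76.9 for complex IV and 43.6 for complex V. The complex I genes include 8 Ndufaf assembly factors (median 8.96 RPKM), while the assembly factor lists of the other complexes are kept apart. The 37 nuclear-encoded subunits of complex I alone had a median of 26.3 RPKM. The member with the highest level was *mt-Co1* at 2769 RPKM in MIZ-1WT. Among nuclear-encoded members the catalytic subunits of ATP synthase led, with *Atp5a1* (alpha) at 233 RPKM and *Atp5b* (beta) at 180 RPKM, followed by *Cox6b1* at 172 RPKM and *Cox4i1* at 155 RPKM. The lowest nuclear-encoded members were the muscle isoform *Cox6a2* at 1.11 RPKM and the assembly factor *Ndufaf2* at 1.91 RPKM. Genes annotated on the opposite strand cover 10.3% and 65.6% of their exons, so the level of *Ndufaf2* above all is uncertain.

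Complex IV held the largest called change among the members. *Cox5a* (ENSMUSG00000000088), a nuclear-encoded subunit on the matrix side of the enzyme, measured 45.7 and 43.4 CPM in MIZ-1WT and 66.4 and 60.5 CPM in MIZ-1ΔPOZ. Both MIZ-1ΔPOZ libraries lay well above both MIZ-1WT libraries, and the log2 fold change was 0.51 (SE 0.07, adjusted p = 0.00378). *Cox8a* (ENSMUSG00000035885), a small subunit that spans the membrane, measured 76.4 and 73.8 CPM in MIZ-1WT and 99.2 and 103 CPM in MIZ-1ΔPOZ, without overlap. Its log2 fold change was 0.43 (SE 0.05, adjusted p = 0.00275). *Cox5a* and *Cox8a* were called in all 13 alternatives, at 0.37 to 0.59 and 0.27 to 0.51 on the log2 scale, with adjusted p from 1.56e-06 to 0.0340 and from 1.54e-07 to 0.0316. Genes annotated on the opposite strand cover 12.8% of the exons of *Cox5a*, and the strand setting of the counting is not given in the sources used here. For the called members *Ndufb5* and *Atp5f1* the cover was 12.3% and 8.21%. The other 10 nuclear-encoded members of complex IV were not called, while 40% of all genes were called in either direction. *Cox4i1*, a regulatory subunit, had a log2 fold change of 0.13 (95% interval -0.02 to 0.29, adjusted p = 0.131). The ubiquitous isoforms *Cox6a1* (-0.01) and *Cox7a2* (-0.0044) overlapped between genotypes, whereas *Cox6b1* (0.13), *Cox7b* (0.08) and *Cox7a2l* (0.08), a factor for supercomplexes, had both MIZ-1ΔPOZ libraries above both MIZ-1WT libraries without passing the test. *Cox7c* was the lowest of the nuclear-encoded group at -0.05. The highest value of the group, 0.54 for *Cox6a2*, rested on 38 and 27 counts against 53 and 48 (adjusted p = 0.154).

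Tissue-restricted isoforms of complex IV were nearly absent from the counts. *Cox4i2* had between 1 and 4 counts per library, *Cox6b2* between 6 and 13, *Cox7a1* between 8 and 13, and *Cox7b2*, *Cox8b* and *Cox8c* had 0 in all 4 libraries. A count of 0 allows up to 3 counts per library, for counting error alone, so the genes at 0 were not detectable at this depth. *Ndufa4l2* and its paralog *Ndufa4* were grouped under complex I by symbol. *Ndufa4l2* had 0 counts in both MIZ-1WT libraries and 4 in each MIZ-1ΔPOZ library. *Ndufa4* measured 83.8 and 84.2 CPM against 88.3 and 88.6 CPM with a log2 fold change of 0.07 (adjusted p = 0.243). B220+ splenocytes of both genotypes thus showed *Cox4i1*, *Cox6a1*, *Cox6b1*, *Cox7a2*, *Cox7b* and *Cox8a* as the isoforms with counts above the filter, beside the few counts of *Cox6a2*.

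Complex V held 4 called members among 17, all higher in MIZ-1ΔPOZ, and 3 of them were the complete Atp5g family. The share higher was near the 21.1% of all genes. The Atp5g genes encode the same mature subunit c, whose ring turns in the membrane, behind different import sequences. *Atp5g1* (ENSMUSG00000006057) measured 25.0 and 24.8 CPM in MIZ-1WT and 32.5 and 33.1 CPM in MIZ-1ΔPOZ, a log2 fold change of 0.40 (SE 0.06, adjusted p = 0.00592). *Atp5g2* measured 44.8 and 42.6 CPM against 52.7 and 53.1 CPM, a log2 fold change of 0.27 (SE 0.06, adjusted p = 0.0136). *Atp5g3*, the most abundant of them, measured 77.4 and 77.9 CPM against 87.4 and 89.4 CPM, a log2 fold change of 0.19 (SE 0.05, adjusted p = 0.0258), but -0.03 once the uncentred trend on GC content and length was removed, where the median of all genes was -0.14. None of the 3 overlapped between genotypes, and *Atp5g1* was called in all 12 alternatives in which it was tested (adjusted p from 0.000647 to 0.0497). The calls of *Atp5g2* and *Atp5g3* held in 10 and 8 of 13 alternatives, and their signs in 13 and 12. Of the 50-base words of *Atp5g2*, 38.4% also occur in transcripts of other genes, as do 11.1% of those of *Atp5g1* and 0% of those of *Atp5g3*. By this measure alone the value of *Atp5g2* is the least certain of the family. *Atp5f1*, subunit b of the peripheral stalk, was the fourth, at 178 and 180 CPM against 209 and 201 CPM (log2 fold change 0.20, SE 0.05, adjusted p = 0.0200). The catalytic subunits came close to the threshold without passing it, with 0.15 for *Atp5a1* (adjusted p = 0.0737), 0.14 for *Atp5b* (adjusted p = 0.0667) and 0.12 for the central stalk subunit *Atp5c1* (adjusted p = 0.0870). *Atp5l*, subunit g of the membrane part, was lowest at -0.07 (adjusted p = 0.402).

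Complex I, the largest complex, held 8 members called higher and 1 called lower among 45 nuclear-encoded ones. Over all genes 21.1% were higher and 18.9% lower, so the share higher was near the background. The called members were accessory subunits and assembly factors. *Ndufa10* (ENSMUSG00000026260), an accessory subunit of the membrane arm, measured 65.3 and 68.6 CPM in MIZ-1WT and 84.1 and 88.1 CPM in MIZ-1ΔPOZ, and its log2 fold change was 0.36 (SE 0.05, adjusted p = 0.00559). *Ndufc2*, also of the membrane arm, measured 35.0 and 40.9 CPM against 48.7 and 46.8 CPM, a log2 fold change of 0.33 (SE 0.09, adjusted p = 0.0300). The X-linked *Ndufa1* measured 26.7 and 27.6 CPM against 33.9 and 31.7 CPM, a log2 fold change of 0.27 (SE 0.07, adjusted p = 0.0243). *Ndufb3* (0.24), *Ndufb5* (0.22) and *Ndufa9* (0.20, but -0.03 once the uncentred trend was removed) completed the accessory subunits that rose, with adjusted p of 0.0368, 0.0296 and 0.0363. Among the 8 Ndufaf assembly factors, *Ndufaf7*, a methyltransferase, rose by 0.33 (15.3 and 14.0 CPM against 19.3 and 17.6 CPM, adjusted p = 0.0352) and *Ndufaf1*, which helps to build the membrane arm, by 0.20 (adjusted p = 0.0485). The median of the 8 was 0.01. The calls were not equally firm. *Ndufa10* was called in 12 of 13 alternatives and *Ndufc2* in 10 of 13, *Ndufa1* and *Ndufb5* in 8 of 13, *Ndufb3* in 7 of 13, *Ndufaf7* in 7 of 12 and *Ndufa9* in 6 of 13. *Ndufaf1* was called in only 3 of 12, lost the call when any 1 library was left out, and fell to 0.026 once the uncentred trend was removed.

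*Ndufa3* (ENSMUSG00000035674), an accessory subunit of the membrane arm, was the single member called lower. It measured 53.3 and 50.9 CPM in MIZ-1WT and 45.4 and 45.5 CPM in MIZ-1ΔPOZ, without overlap, and its log2 fold change was -0.20 (SE 0.06, adjusted p = 0.0367). The call held in 6 of 13 alternatives and the sign in all 13. By family, 3 of 14 Ndufa genes rose and 1 fell, and 2 of 10 Ndufb and 1 of 2 Ndufc genes rose. Of the Ndufs and Ndufv genes, 0 of 8 and 0 of 3 were called by edgeR. Over all genes 21.1% were higher and 18.9% lower. The Ndufs and Ndufv families hold the subunits that carry flavin and iron-sulfur clusters. Their values were 0.11 for *Ndufv1*, which binds NADH, 0.11 for *Ndufs1*, -0.10 for *Ndufs7* and 0.13 for *Ndufs8*, and for each of these 4 genes the 95% interval lay within -0.24 to 0.27. At an unadjusted p under 0.05, 1 Ndufs gene and 1 Ndufv gene were higher, and DESeq2 called 0 of either. With genes of a mean of at least 30 RPM alone, 2 of 6 Ndufs and 2 of 3 Ndufv genes were called higher, without MIZ-1ΔPOZ replicate 2 it was 1 Ndufs gene, and after removal of the uncentred trend 2 Ndufs genes and 1 Ndufv gene were called lower.

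In complex II, 2 of 4 members were called higher, where 21.1% of all genes were. *Sdhc* measured 53.0 and 52.1 CPM in MIZ-1WT and 59.6 and 62.0 CPM in MIZ-1ΔPOZ (log2 fold change 0.21, SE 0.05, adjusted p = 0.0262), and *Sdhd* measured 74.7 and 81.0 CPM against 92.4 and 87.7 CPM (0.21, SE 0.06, adjusted p = 0.0401). These 2 genes encode the anchors that hold the enzyme in the membrane and bind coenzyme Q. The flavoprotein *Sdha* measured 231 and 225 CPM against 219 and 240 CPM, and the iron-sulfur subunit *Sdhb* measured 123 and 142 CPM against 130 and 126 CPM. Both overlapped between genotypes, with log2 fold changes of 0.01 (95% interval -0.14 to 0.15) and -0.05 (95% interval -0.24 to 0.13). Whether the anchors differed from the catalytic pair was not tested. The calls of *Sdhc* and *Sdhd* each held in 7 of 13 alternatives. Neither was called without MIZ-1WT replicate 1 or 2, only *Sdhc* was called without MIZ-1ΔPOZ replicate 1 and only *Sdhd* without MIZ-1ΔPOZ replicate 2, and their values fell to 0.0036 and 0.048 once the uncentred trend was removed. With the replicate number as a block, 0 members of complex II were called and 2 were higher at an unadjusted p under 0.05.

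In complex III, 1 of 9 nuclear-encoded members was called, where 40% of all genes were called in either direction. *Uqcr10*, a small subunit, measured 48.7 and 47.3 CPM in MIZ-1WT and 57.7 and 55.5 CPM in MIZ-1ΔPOZ, a log2 fold change of 0.24 (SE 0.05, adjusted p = 0.0196). The Rieske iron-sulfur protein *Uqcrfs1* had 78.1 and 79.0 CPM against 86.0 and 87.9 CPM, without overlap, and just missed the threshold (0.15, adjusted p = 0.0530). The core protein *Uqcrc1* stood at -0.01. *Cyc1*, cytochrome c1, had both MIZ-1ΔPOZ libraries (36.5 and 38.5 CPM) below both MIZ-1WT libraries (41.0 and 41.9 CPM) at -0.15 (adjusted p = 0.103), the lowest value among the nuclear-encoded members of complex III.

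**Figure D2:**
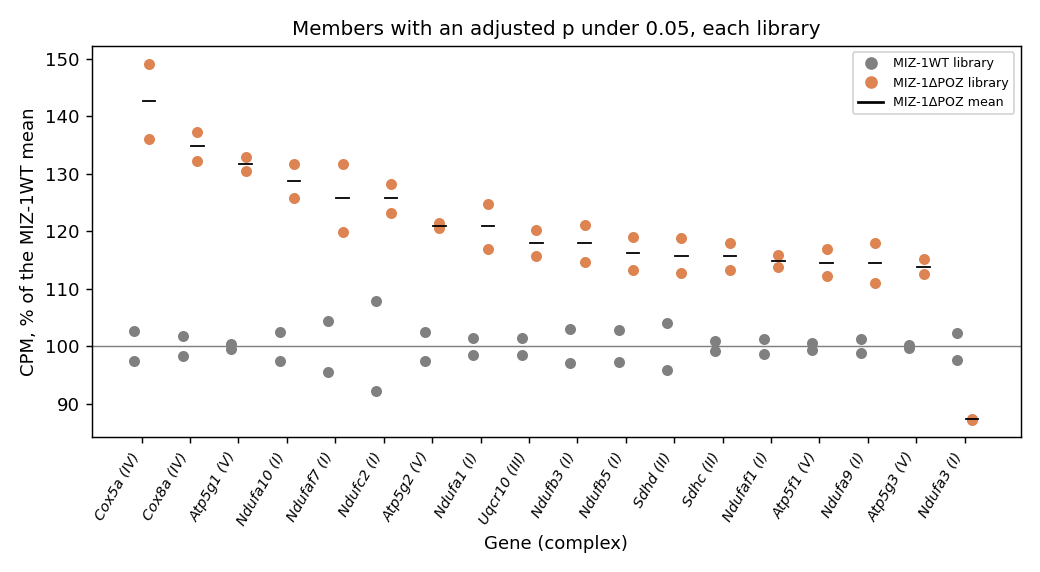
CPM of each library as a percent of the MIZ-1WT mean of the gene (vertical axis, which does not start at 0) for the 18 members with an adjusted p under 0.05 (horizontal axis, complex in brackets), with grey points for MIZ-1WT libraries, orange points for MIZ-1ΔPOZ libraries and bars for the MIZ-1ΔPOZ mean. In each gene the genotypes do not overlap, and *Ndufa3* is the one with the MIZ-1ΔPOZ libraries below. The genes were picked by the test on these same libraries, so the lack of overlap adds no support. Over all tested genes, both MIZ-1ΔPOZ libraries lay above both MIZ-1WT libraries in 37.2% and below them in 37.6%.

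The promoters of the called genes with the largest changes in complex IV (*Cox5a* and *Cox8a*), of the Atp5g family and of the lower *Ndufa3* are shown, because nuclear respiratory genes are known to share binding motifs for a few factors. Each run is 150 bases upstream of the annotated start from RefSeq on GRCm38.p6, written 5′ to 3′ on the strand of the gene, with matches to the NRF1 motif GCGCATGC, the ETS motif of GABPA CCGGAAG, the YY1 motif AAGATGGC or the SP1 motif GGGCGG, on either strand, in capitals.
Cox5a promoter, chr9:57521082-57521231, plus strand: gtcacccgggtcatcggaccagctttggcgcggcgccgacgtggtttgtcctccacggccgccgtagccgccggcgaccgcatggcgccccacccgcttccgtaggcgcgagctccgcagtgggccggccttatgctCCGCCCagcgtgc
Cox8a promoter, chr19:7217617-7217766, minus strand: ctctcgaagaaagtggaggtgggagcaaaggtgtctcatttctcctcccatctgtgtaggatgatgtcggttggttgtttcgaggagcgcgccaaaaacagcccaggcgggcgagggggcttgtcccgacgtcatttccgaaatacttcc
Atp5g1 promoter, chr11:96075632-96075781, minus strand: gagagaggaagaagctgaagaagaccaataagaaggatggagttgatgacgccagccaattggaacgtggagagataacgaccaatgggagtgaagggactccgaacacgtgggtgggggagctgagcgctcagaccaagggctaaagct
Atp5g2 promoter, chr15:102671048-102671197, minus strand: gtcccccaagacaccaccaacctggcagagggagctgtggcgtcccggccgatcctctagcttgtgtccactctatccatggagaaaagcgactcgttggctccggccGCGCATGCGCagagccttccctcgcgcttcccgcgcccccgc
Atp5g3 promoter, chr2:73911327-73911476, minus strand: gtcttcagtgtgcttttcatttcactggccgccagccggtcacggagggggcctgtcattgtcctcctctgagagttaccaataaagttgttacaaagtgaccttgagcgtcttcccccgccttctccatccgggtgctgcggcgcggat
Ndufa3 promoter, chr7:3617223-3617372, plus strand: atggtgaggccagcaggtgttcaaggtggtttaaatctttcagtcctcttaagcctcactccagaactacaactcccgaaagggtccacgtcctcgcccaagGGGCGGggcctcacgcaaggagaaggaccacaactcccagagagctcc
The capitals mark an SP1 match in *Cox5a* and *Ndufa3* and a pair of overlapping NRF1 matches, one on each strand, in *Atp5g2*. The other 3 runs hold none of the 4 words. In the longer windows of 300 bases used next, *Cox8a* also held the ETS word and *Ndufa3* also held the YY1 word.

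In windows of 300 bases (250 before and 50 after the start), 70 of the 87 nuclear-encoded members were matched to a promoter. The NRF1 word occurred in 17.1% of them, against 3.05% of 27025 promoter windows of all genes. The ETS word occurred in 25.7% against 9.93%, the YY1 word in 14.3% against 3.19%, and the SP1 word in 44.3% against 38.2%. Among the 15 matched members that rose, 1 held the NRF1 word, 3 the ETS word, 1 the YY1 word and 7 the SP1 word. Among the 54 that were not called, 11 held the NRF1 word, 15 the ETS word, 8 the YY1 word and 23 the SP1 word. A match is a description of these letters and not evidence of binding.

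None of the 8 tested mitochondrially encoded members was called by edgeR (0 at an unadjusted p under 0.05, and 0 called by DESeq2 after adjustment). Without MIZ-1ΔPOZ replicate 2, however, 4 were called lower, *mt-Nd4* (-0.70), *mt-Nd2* (-0.66), *mt-Cytb* (-0.45) and *mt-Nd1* (-0.39), and after removal of the centred trend 1 was called higher, *mt-Nd6* (0.39). Their libraries spread more than those of the nuclear-encoded genes. *mt-Co1*, the catalytic core of complex IV, measured 4571 and 3984 CPM in MIZ-1WT and 3779 and 4119 CPM in MIZ-1ΔPOZ, so the genotypes overlapped (log2 fold change -0.12, adjusted p = 0.364). *mt-Nd1* had 15133 and 11863 counts against 11335 and 12706 (-0.25, adjusted p = 0.165), *mt-Nd2* had 4892 and 3690 against 2983 and 4028 (-0.37, adjusted p = 0.183), and *mt-Nd4* had 3855 and 2995 against 2326 and 3389 (-0.34, adjusted p = 0.260). *mt-Nd5* (-0.03) and *mt-Nd6* (0.03), the one gene here transcribed from the other strand of the mitochondrial genome, were closest to 0, and *mt-Cytb* of complex III stood at -0.18. The lowest value, -0.75 for *mt-Co3*, rested on 30 and 22 counts against 22 and 11 (adjusted p = 0.186). In 5 of these 8 genes MIZ-1WT replicate 1 was the highest library and MIZ-1ΔPOZ replicate 1 the lowest.

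All 13 mitochondrial protein genes together took 0.535% and 0.459% of the gene counts in MIZ-1WT and 0.448% and 0.498% in MIZ-1ΔPOZ. The genotypes overlapped in this share, and its sign turned when either replicate 1 was left out. *mt-Co1* alone made up between 83.8% and 86.5% of the 13 genes. The mitochondrial ribosomal RNAs differed more. *mt-Rnr2* had 203582 and 192117 counts in MIZ-1WT and 76002 and 117175 in MIZ-1ΔPOZ (log2 fold change -1.11, SE 0.23, adjusted p = 0.0139), and *mt-Rnr1* stood at -1.02 (SE 0.29, adjusted p = 0.0372). Ribosomal RNA was depleted during library preparation, so these counts are what depletion left, and the part of the depletion in this difference was not tested.

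Of the 13 mitochondrial protein genes, 5 failed the filter although the mitochondrial genome is transcribed as long joint precursors. *mt-Co2* had 1, 3, 4 and 2 counts in the libraries MIZ-1WT 1, MIZ-1WT 2, MIZ-1ΔPOZ 1 and MIZ-1ΔPOZ 2, and *mt-Nd3* had 9, 7, 5 and 0. *mt-Atp6* had at most 3 counts, *mt-Atp8* at most 1, and *mt-Nd4l* 0 in every library. *mt-Co2* (chrM:7013-7696) follows *mt-Co1* (chrM:5328-6872), which had at least 167500 counts in every library.

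The genes with few counts, apart from *mt-Atp8*, were those whose sequence is nearly all shared with copies in the nuclear genome. In *mt-Nd3*, *mt-Nd4l*, *mt-Co2*, *mt-Co3* and *mt-Atp6*, between 98.0% and 100% of the 50-base words also occur in transcripts of another annotated gene. The other shares were 62.2% for *mt-Nd4*, 51.1% for *mt-Co1*, 8.19% for *mt-Nd2*, 7.61% for *mt-Nd5* and 0% for *mt-Nd1*, *mt-Nd6*, *mt-Cytb* and *mt-Atp8*. The copies of these 5 genes and of *mt-Nd4*, with a partial copy of *mt-Co1*, are pseudogenes on chromosome 1 between 24611535 and 24616197 (GENCODE annotation of GRCm38). Copies of *mt-Nd2* and *mt-Nd5* and further copies of *mt-Co1* and *mt-Co2* lie on other chromosomes, such as *Gm13340* on chromosome 2, which matches *mt-Co1* over 1545 bases with 37 differences and had between 73 and 109 counts. *Gm28661* matches *mt-Co2* over 681 bases with 0 differences, *Gm28437* matches *mt-Co3* over 783 bases with 0 differences, and *Gm10925* matches *mt-Atp6* over 678 bases with 0 differences. *Gm28438* matches *mt-Nd3* over 345 bases with 1 difference, T3C, counted from 1 at the first base of *mt-Nd3*. The first 50 bases of both are shown, from GENCODE transcripts, with the differing base in capitals.
mt-Nd3, chrM:9459-9508, plus strand: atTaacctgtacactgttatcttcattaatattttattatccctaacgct
Gm28438, chr1:24613070-24613119, minus strand: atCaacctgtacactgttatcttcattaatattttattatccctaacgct
A 50-base read that lies wholly within the rest of the aligned bases holds no base that tells *mt-Nd3* from *Gm28438*. The copies on chromosome 1 had between 0 and 15 counts themselves. The table lists reads that aligned in more than one place (42.8% to 44.1% of it) apart from the genes, and what is listed there adds nothing to the count of a gene. The levels of the 5 genes with nearly all words shared, and in part those of *mt-Nd4* and *mt-Co1*, are therefore uncertain. *mt-Atp8* lies between *mt-Co2* and *mt-Atp6*, and the stretch of chromosome 1 between the copies of these neighbours was not analysed here.

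**Figure D3:**
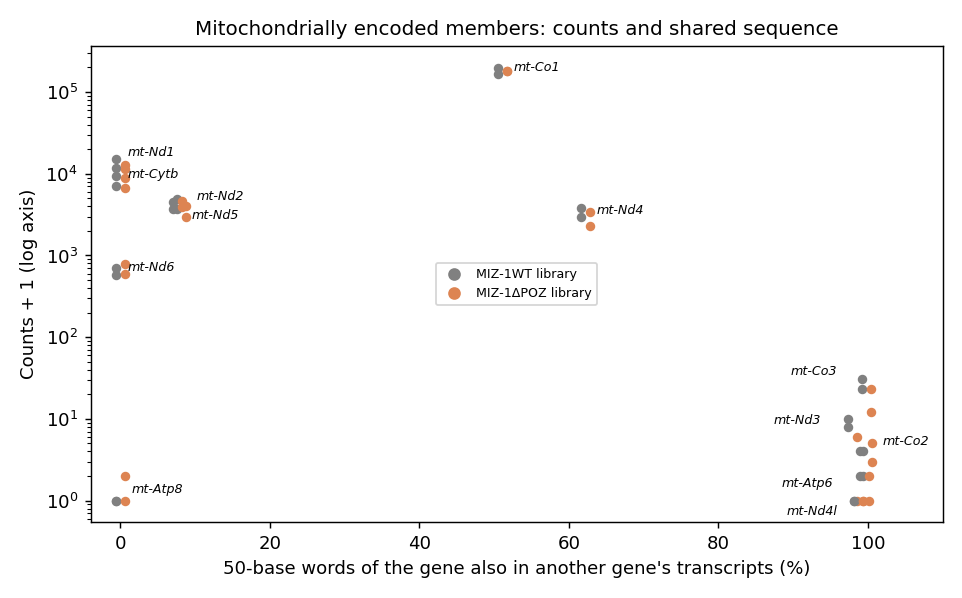
Counts plus 1 (log axis, vertical) of the 13 mitochondrial protein genes in each library against the share of their 50-base words found in transcripts of other genes (horizontal axis, %). The 5 genes at 98.0% or more have at most 30 counts, and *mt-Atp8* is the one gene at 0% that also has few counts.

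Genes around the chain were read from lists of assembly factors, cofactors and regulators. The 9 nuclear regulators of respiratory genes fell most often, with 7 lower and 0 higher (against 18.9% and 21.1% of all genes) and a median of -0.29 (-0.45 to -0.17 over the 13 alternatives). DESeq2 also called 7 lower and 0 higher, and 0 were higher at an unadjusted p under 0.05. The median was -0.28 without MIZ-1WT replicate 1 and -0.28 without MIZ-1WT replicate 2. Fewer regulators were called in each of these fits, as were fewer of all genes. *Nrf1*, which binds many respiratory gene promoters, measured 112 and 108 CPM in MIZ-1WT and 84.8 and 83.0 CPM in MIZ-1ΔPOZ, a log2 fold change of -0.39 (SE 0.05, adjusted p = 0.00329). *Gabpa* (-0.16) and *Gabpb1* (-0.34), the subunits of an ETS factor, *Yy1* (-0.21) and the nuclear receptor *Esrra* (-0.29) fell too. The coactivators *Pprc1* (-0.35) and *Ppargc1a* (-0.96, 147 and 145 counts against 78 and 82) fell, while *Ppargc1b* (0.02, adjusted p = 0.948) and *Gabpb2* (-0.14, adjusted p = 0.0505) were not called.

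The genes for mitochondrial transcription and RNA stability had 4 of 16 lower and 0 higher, or 25% lower against 18.9% of all genes (1 higher at an unadjusted p under 0.05, and 2 lower and 0 higher by DESeq2). The 4 were the mitochondrial RNA polymerase *Polrmt* (-0.40, SE 0.06, adjusted p = 0.00606), the transcription factor *Tfam* (-0.17), *Mterf3* (-0.18) and *Fastkd5* (-0.45). The median of the list was -0.11 without MIZ-1WT replicate 1 and -0.098 without MIZ-1WT replicate 2. Fewer of these genes were called lower in each of these fits, as fewer of all genes were called. In mitochondrial DNA replication 1 of 9 genes fell, *Primpol* (-0.23, adjusted p = 0.0389). The mitochondrial ribosome had 7 of 77 genes higher and 11 lower with a median of 0.04, led by *Mrpl52* (0.62, adjusted p = 0.00287) and *Mrps23* (-0.34, adjusted p = 0.00828). Coenzyme Q synthesis and cytochrome c had 1 gene of 15 in each direction, *Coq3* (0.44, adjusted p = 0.0126) and *Coq6* (-0.32, adjusted p = 0.0128). In either direction 11.1% of the DNA replication list, 23.4% of the ribosome list and 13.3% of the coenzyme Q list were called. Each share was below the 40% of all genes.

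Assembly factors moved in both directions. For complex IV, 4 of 21 tested genes rose and 3 fell, or 33.3% called. The share was 25% for complex II, 11.1% for complex I outside the Nduf genes and 0% for complexes III and V. Over all genes it was 40%, so none of these lists was called more often than the background. *Cox19*, a copper-handling protein of the intermembrane space, measured 15.4 and 14.4 CPM in MIZ-1WT and 8.15 and 8.66 CPM in MIZ-1ΔPOZ, a log2 fold change of -0.83 (SE 0.09, adjusted p = 0.00264). *Cmc1* rose by 0.75 (SE 0.17, adjusted p = 0.0173) from 3.16 and 2.59 CPM to 4.94 and 4.78 CPM. *Sdhaf1* of complex II rose by 0.32 (adjusted p = 0.0131), and *Tmem126b* of complex I fell by 0.24 (adjusted p = 0.0312), the only called genes among 4 and 9. The 6 assembly factors of complex III and the 3 of complex V had 0 calls by edgeR and by DESeq2, with 1 in each direction for complex III and 0 for complex V at an unadjusted p under 0.05. Over all 10 lists 41 genes were called, but far fewer without either MIZ-1WT replicate, with the lone library then assumed to vary like the others. The share called over all genes fell in these fits as well.

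**Figure D4:**
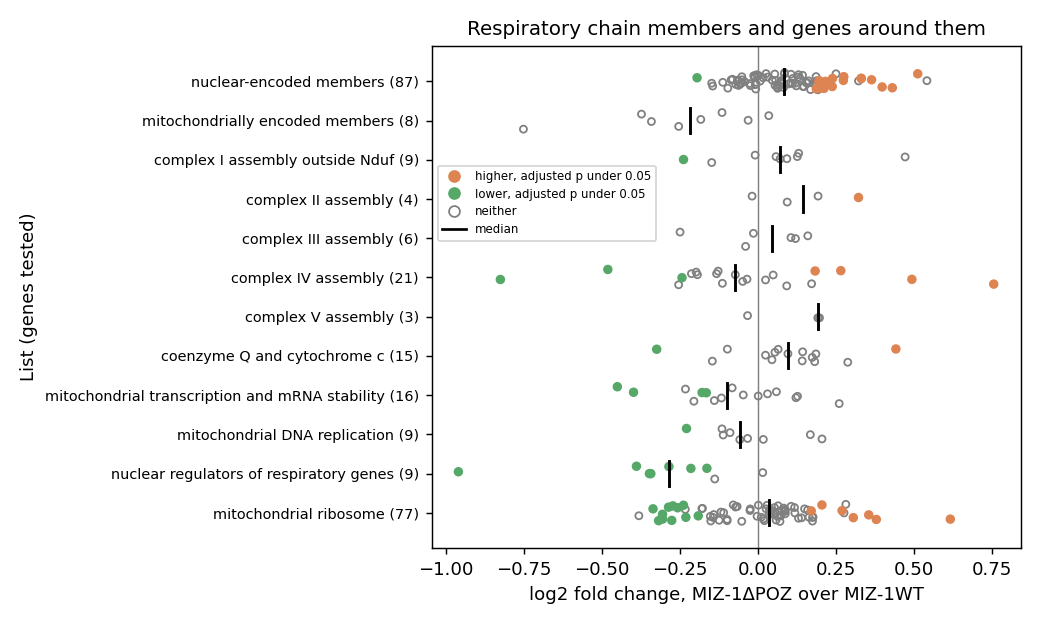
Log2 fold change (horizontal axis) of members and of the genes around them by list (rows, with the number of genes tested), filled points for adjusted p under 0.05 and bars for medians. The regulators have the lowest median, -0.29, and the widest assembly list is that of complex IV, from -0.83 to 0.75.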

How the data were processed

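RNA of B220+ splenocytes was measured in 2 MIZ-1WT and 2 MIZ-1ΔPOZ libraries, grouped by the labelled genotype. The authors trimmed the reads with Trimmomatic, mapped them to mm10 with TopHat2 (version 2.1.0 in the submitters' processing notes) and used HTSeq for counting on Ensembl genes, and they deposited raw counts that were neither normalized nor pooled. The strand setting and the Ensembl release are not given in the sources used here. HTSeq's summary lines (21.1% to 27.2% of reads outside genes, 0.281% to 0.302% ambiguous, 42.8% to 44.1% aligned in more than one place) stayed out of library sizes and tests.

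The 14554 genes that reached 10 counts in 2 or more libraries were compared with the quasi-likelihood test of edgeR version 4.0.16 in R version 4.3.3, with TMM (factors from 0.977 to 1.03), genotype as the only term and Benjamini-Hochberg adjustment over all of them. The threshold was an adjusted p of 0.05, and the common dispersion was 0.00848. CPM are TMM-normalized, and RPKM divide them by the union of exons. Symbols and positions come from GENCODE M21, and promoters from RefSeq. Replicates were distinct: the chi-square per degree of freedom between them was 9.79 in MIZ-1WT and 21.9 in MIZ-1ΔPOZ. Intervals of single counts cover counting error only.

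Alternatives were DESeq2's size factors, DESeq2 (version 1.42.0) with its Wald test, no count filter, a filter at a mean of 30 RPM, the replicate number as a block, leaving out each library, library sizes without 257 immunoglobulin segments or 37 mitochondrial genes, and a correction for GC content and exon length per library. A centred form of the last was added after the data were seen. Procedures were tested on simulated data. The members, gene lists and tests were chosen with earlier results of these data known. Named genes were all called members, the mitochondrially encoded members, isoform pairs and catalytic core subunits, the highest and lowest member of each complex, and in each list the called gene with the smallest p in each direction. A further gene that the rule would have named is left out. Other called genes of the regulator and transcription lists were named after their values were seen.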

Additional observations from a re-analysis of the deposited data

How the results depend on the processing

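The calls rest on few libraries, and over all genes too the share called fell whichever library was left out. Leaving out a library gave between 3 and 20 members higher, between 0 and 4 lower, a nuclear-encoded median of 0.077 to 0.11, and between 4 and 34 genes called in the lists around the chain, where the lone library of a genotype is assumed to vary like the others. The difference in the share of counts on the 13 mitochondrial genes was -0.024 percentage points and ranged from -0.062 to 0.014. With a mean of at least 30 RPM, 6052 genes were tested, 33 members were higher and 0 lower, the nuclear-encoded median was 0.16 and 21 list genes were called. This filter shifted log2 fold changes by 0.08, since the same genes had a median of -0.08 under the scaling by all genes. Taking out the dependence on GC content and length gave 5 members higher, 21 lower, a nuclear-encoded median of -0.060 and 68 list genes, with the median of all genes shifted by -0.14. Its centred form gave 14 higher and 1 lower, a median of 0.084 and a shift of 0.00. The DESeq2 Wald test gave 14 higher and 0 lower. Of all genes, in both directions together, 45.4% were called at 30 RPM, 50.4% under the uncentred trend, 39.7% under the centred trend and 34.9% by DESeq2. Whether the replicate numbers pair the samples is not given in the labels. The correlation of same-numbered deviations was -0.069, which with 2 libraries per genotype cannot decide it. The replicate block gave 8 members higher, 0 lower and 25 list genes, with 32.5% of all genes called. The median of the mitochondrially encoded members stayed below 0 in all 13 alternatives, from -0.39 to -0.055, and the nuclear-encoded median stayed above that of all genes.

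Of the log2 fold changes of named genes over all alternatives, 580 values kept sign and call, 96 lost the call, 26 gained it and 39 changed sign. The uncentred trend changed the sign of *Atp5a1* (-0.020), *Atp5b* (-0.038), *Atp5c1* (-0.084), *Atp5g3* (-0.033), *Cox4i1* (-0.039), *Cox6b1* (-0.045), *Cox7a2l* (-0.11), *Cox7b* (-0.0018), *Ndufa4* (-0.0034), *Ndufa9* (-0.026), *Ndufs1* (-0.00030), *Ndufs8* (-0.060), *Ndufv1* (-0.048), *Sdha* (-0.18) and *Uqcrfs1* (-0.026). The centred trend changed that of *Atp5l* (0.018), *Sdha* (-0.037) and *mt-Nd5* (0.073), 30 RPM that of *Atp5l* (0.0098), *Cox6a1* (0.069), *Cox7a2* (0.072), *Sdhb* (0.024), *Uqcrc1* (0.070) and *mt-Nd5* (0.044), and no filter that of *Sdha* (-0.0017). Leaving out a library changed it for 8 members, with ranges of *Cox6a1* (-0.12 to 0.12), *Cox7a2* (-0.080 to 0.079), *Sdha* (-0.051 to 0.073), *Sdhb* (-0.15 to 0.052), *Uqcrc1* (-0.030 to 0.029), *mt-Cytb* (-0.45 to 0.053), *mt-Nd5* (-0.22 to 0.14) and *mt-Nd6* (-0.11 to 0.18). The causes were not tested.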
